A study of Homo sapiens with 3 samples.

Results

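The cytosolic ribosomal protein genes encode the proteins that, with ribosomal RNA, make up the 40S and 60S subunits of the ribosome in the cytoplasm. Members were the protein-coding genes with a symbol of the RPL, RPS or RPLP series, plus RPSA and FAU, and 85 of the 15808 genes in the count table met this rule. They comprised 46 canonical genes of the large subunit, 32 canonical genes of the small subunit and 7 paralogues that stand beside a canonical gene (RPL3L, RPL7L1, RPL22L1, RPL26L1, RPL36AL, RPL39L and RPS27L). The paralogue RPL10L, which also meets the rule, was not analysed here.

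RNA was sequenced from OCI-Ly10 cells kept for 6 h with MZ1. OCI-Ly10 is an established human lymphoma line, derived from a diffuse large B cell tumour of the ABC (activated B cell-like) class. MZ1 is a small molecule with 2 binding ends, 1 for BET bromodomain proteins and 1 for the ubiquitin ligase VHL, and leads to degradation of the BET proteins. All 3 libraries are replicates of this single treated group. Untreated cells and other lines were not analysed here, and the values describe treated cells only, without an effect of MZ1. Nothing in the labels tells whether each replicate was its own culture, so p-values measure the spread between these libraries, which may be technical.

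Replicates 1, 2 and 3 held 5474462, 1441246 and 1314812 counts. Levels are CPM (counts relative to the library size) after TMM scaling, a scaling that aligns the bulk of genes between libraries, and 1 count is worth 0.20, 0.629 and 0.767 CPM. Replicate 1 stood apart in depth and in its make-up, with 0.251% of counts on annotated antisense genes against 2.04% and 2.09% in replicates 2 and 3, so results are also given without it. All 6 B cell markers were present, with summed levels of 6049, 1925 and 4056 CPM. Of 4 T cell markers only CD2 was in the table, at 7, 0 and 0 counts, and of 4 myeloid markers LYZ and CSF1R were, with summed levels of 8.20, 8.17 and 4.60 CPM.

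Ribosomal protein mRNAs are among the most abundant of any growing cell, and their products are needed in equal numbers, since most are present once per ribosome. Most of these mRNAs begin with a C followed by a run of pyrimidines, the 5′ terminal oligopyrimidine (TOP) tract. Through this tract the mTOR kinase and the RNA-binding protein LARP1 control their translation and stability together. Proteins made in excess over their partners are degraded, and free RPL5 and RPL11 bind MDM2 and so stabilise p53.

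The start regions of 6 members that have this feature are printed. Of these, RPS14, RPS6 and RPL13A kept a high level in all libraries, and RPL28, RPS19 and RPLP0 were far lower in replicate 2. Other genes of both kinds lack it at the annotated start. RPL11, high in all libraries, has an A there. Among genes far lower in replicate 2, RPS28 has an A, RPS26 a G and RPS29 a T. Each window, from RefSeq on GRCh38.p14, runs 5′ to 3′ on the gene's strand from 30 bases before the annotated start through the first 20 transcribed bases, and capitals mark the unbroken run of C and T that spans the start.
RPS14 (chr5:150449720-150449769, minus strand): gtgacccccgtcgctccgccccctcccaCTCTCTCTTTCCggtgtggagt
RPS6 (chr9:19380217-19380266, minus strand): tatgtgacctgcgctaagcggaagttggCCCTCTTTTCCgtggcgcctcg
RPL13A (chr19:49487578-49487627, plus strand): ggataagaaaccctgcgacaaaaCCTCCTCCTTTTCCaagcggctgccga
RPL28 (chr19:55385902-55385951, plus strand): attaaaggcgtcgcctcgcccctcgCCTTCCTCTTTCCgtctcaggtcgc
RPS19 (chr19:41860225-41860274, plus strand): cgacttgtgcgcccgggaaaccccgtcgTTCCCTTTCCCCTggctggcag
RPLP0 (chr12:120201092-120201141, minus strand): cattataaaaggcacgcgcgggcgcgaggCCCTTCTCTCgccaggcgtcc
RefSeq promoters were matched for 63 of the 78 canonical genes. Of these, 43 (68.3%) began with a C followed by at least 4 further pyrimidines, against 4.04% of 27305 promoters in the reference. The letters CTTT lay within 5 bases of the start, on the gene's strand, in 54.0% of members and 5.89% of all promoters. Other motifs were counted on both strands from 250 bases before to 50 after the start. CCGGAAG and AAGATGGC can share the letters AAG, and the others cannot contain one another. CCGGAAG, the core letters bound by ETS factors, was in 33.3% of member promoters against 10.7% of all, and AAGATGGC, letters of the YY1 site, in 11.1% against 3.03%. GGGCGG was in 55.6% against 44.6%, CACGTG in 4.76% against 7.43% and TATAAA in 7.94% against 12.0%. A match describes these letters in this window and no binding.

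All 78 canonical genes had at least 1 CPM in every library. Together the 85 members took 16.3% of all counts in replicate 1 (exact Clopper-Pearson 95% interval 16.25 to 16.31%), 8.86% in replicate 2 (8.82 to 8.91%) and 14.1% in replicate 3 (14.06 to 14.17%). The median canonical gene had 1996 CPM in replicate 1, 364 in replicate 2 and 777 in replicate 3, while the median of the 10016 genes tested was even, at 24.0, 20.1 and 22.2 CPM. The family was thus at its lowest in replicate 2 and at its highest in replicate 1. In bulk RNA, fewer cells with a transcript and less of it per cell cannot be told apart.

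**Figure D1:**
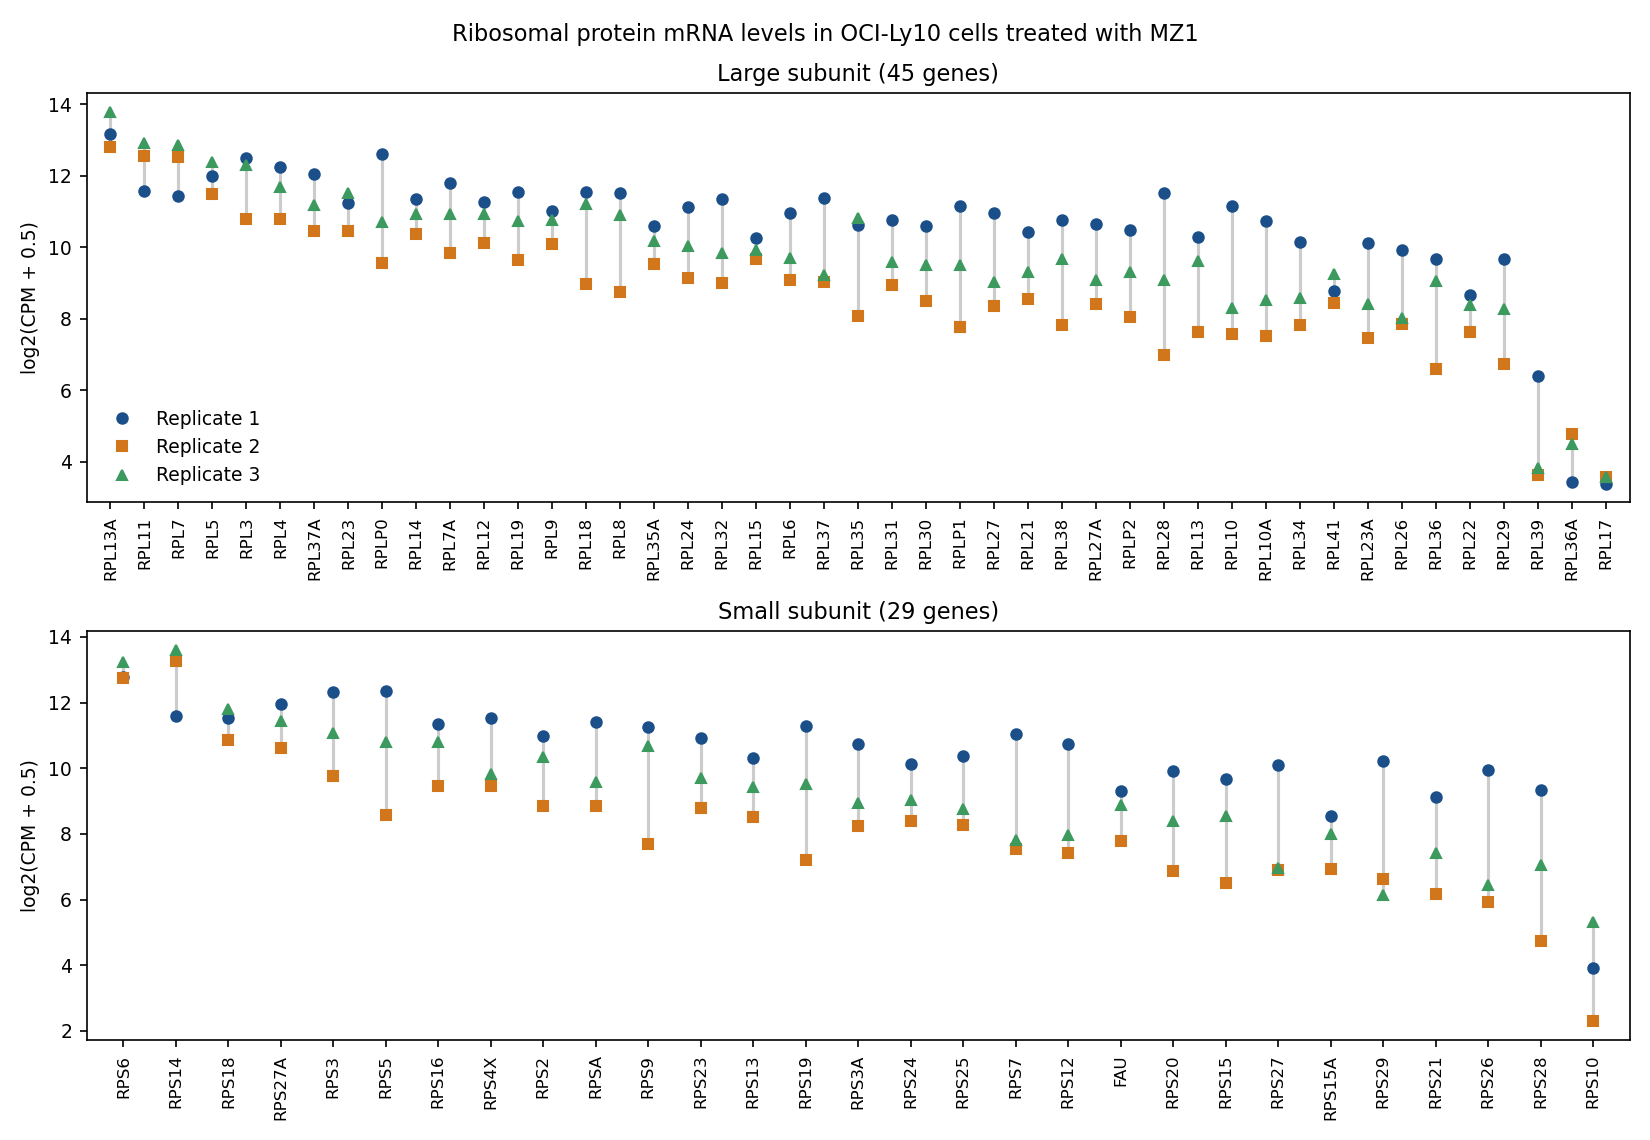
Level of canonical genes, as log2(CPM + 0.5) on the vertical axis, for 45 large subunit genes (top) and 29 small subunit genes (bottom), with 4 of the 78 not shown, ordered by mean log2 level. Each symbol is 1 library and grey lines join the 3 libraries of a gene. Replicate 2 (squares) was the lowest of the 3 for most genes, while RPS14, RPL7 and RPL11 were lowest in replicate 1 (circles).

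Levels of different genes are compared per kb of exon, since a longer mRNA gives more reads. Over merged exons, RPL13A, RPS6, RPL11, RPL7 and RPS14 were among the 6 highest canonical genes. RPL13A, a large subunit protein, had 3913, 3035 and 5933 CPM per kb in replicates 1, 2 and 3. RPS6, the small subunit protein phosphorylated by the S6 kinases, had 2569, 2520 and 3568 CPM per kb, a range that overlaps that of RPL13A. RPL11, a partner of the 5S ribosomal RNA, had 1148, 2264 and 2890 CPM per kb. RPL7 had 945, 2030 and 2535 and RPS14, a protein of the small subunit platform whose loss is tied to the 5q- syndrome, 601, 1929 and 2450 CPM per kb. These last 3 genes overlap one another and were each lowest in replicate 1. Per kb of the shortest principal transcript, RPS14 was first, at a mean of 14876 CPM per kb.

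At the other end, the lowest levels per kb of merged exons were those of RPL17, RPL36A, RPS10, RPL39, RPS15A and RPS29. RPL17, a protein at the exit of the peptide tunnel, had 50, 18 and 15 counts, or 10.0, 11.3 and 11.5 CPM. RPL36A, a zinc-binding protein of the large subunit, had 52, 43 and 29 counts, or 10.4, 27.0 and 22.2 CPM. RPS10, a protein at the head of the small subunit, had 73, 7 and 51 counts, or 14.6, 4.40 and 39.1 CPM. These 3 genes lay at 4.44, 5.02 and 8.22 CPM per kb on average, far under the canonical medians of 590.4, 122 and 255 CPM per kb in replicates 1, 2 and 3. They are also the 3 members whose exons are shared, on the same strand, with an annotated readthrough gene that joins them to the next gene (RPL17-C18orf32, RPL36A-HNRNPH2 and RPS10-NUDT3). The shared part is 24.8%, 8.40% and 39.4% of their merged exons. The readthrough genes were not analysed here, and the part that shared exons have in these low counts was not tested.

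RPL39, a small protein lining the exit tunnel, had 84.4, 11.9 and 13.8 CPM, and RPS15A, a core small subunit protein, had 377, 122 and 256 CPM. RPS29, a short zinc-binding protein, had 1196, 97.4 and 70.6 CPM. Its place depends on which length is used: it ranked 73rd of 78 per kb of merged exons and 34th per kb of the principal transcript. RPL17, RPS10, RPL36A and RPL39 were the 4 lowest by either length.

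The levels of single members differed between libraries beyond counting error for 83 of the 84 members tested (chi-square test for equal expression across the 3 libraries, Benjamini-Hochberg adjusted over all genes tested, threshold 0.05), against 67.2% of all genes tested. This share says little about the family, because abundant genes pass easily: outside it, 98.5% of the 206 genes that averaged 500 CPM or more passed. RPL17 did not pass (adjusted p = 0.861), and RPL3L had too few counts to be tested. The test compares libraries, not conditions, and assumes that counting is the only error.

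The order and the size of the differences set the members against the background. Of the 84 tested, 64 passed and were ordered replicate 2, then 3, then 1 from low to high, against 21.9% of all genes tested. At 500 CPM or more, 48 of 60 canonical genes passed in this order, against 32.0% of other genes of that level. Replicate 1 was the highest library for 66 members that passed (32.1% of all genes) and replicate 2 the lowest for 75 (28.4% of all genes). Other patterns were rarer: 15 were highest in replicate 3 (17.0% of all genes), 2 were highest in replicate 2 (18.0%), 6 were lowest in replicate 1 (23.1%) and 2 were lowest in replicate 3 (15.7%). The median canonical gene spanned 4.36-fold from its lowest to its highest library, against 2.01-fold for all genes tested and 1.77-fold for other genes of at least 500 CPM.

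On the scale log2(CPM + 0.5), the median difference of replicate 2 from replicate 1 was -2.09 over the 78 canonical genes, a level 4.25-fold lower, and 73 of them were lower. Over all genes tested the median was -0.17. Replicate 3 lay below replicate 1 by a median of -0.98, or 1.97-fold, with 62 of 78 lower, against -0.11 over all genes. Replicate 3 lay above replicate 2 by 0.88, or 1.84-fold, with 76 of 78 higher, against 0.09. Genes of at least 500 CPM outside the family were centred near zero, at -0.04, 0.07 and 0.12 for the same 3 differences. With column totals as the scaling, the median of all genes for replicate 2 against replicate 1 moved from -0.17 to 0.09, and that of the canonical genes from -2.09 to -1.82. In each of the 3 scalings, 72 canonical genes lay below the median of all genes in that difference.

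Replicate 1 was not needed for the gap between replicates 2 and 3. With replicates 2 and 3 alone, 72 of 82 members tested differed, against 33.8% of all genes. Of these, 71 were higher in replicate 3, against 17.9% of all genes, and only RPS29 was lower there. These shares say little by themselves, because abundant genes pass easily and no share was computed for other genes of at least 500 CPM. In size, the median difference was 0.88 over the canonical genes and 0.12 over other genes of that level. The 10 members that did not pass were RPL17, RPL26, RPL36A, RPL37, RPL39, RPL7L1, RPS7, RPS26, RPS27 and RPS27L.

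**Figure D2:**
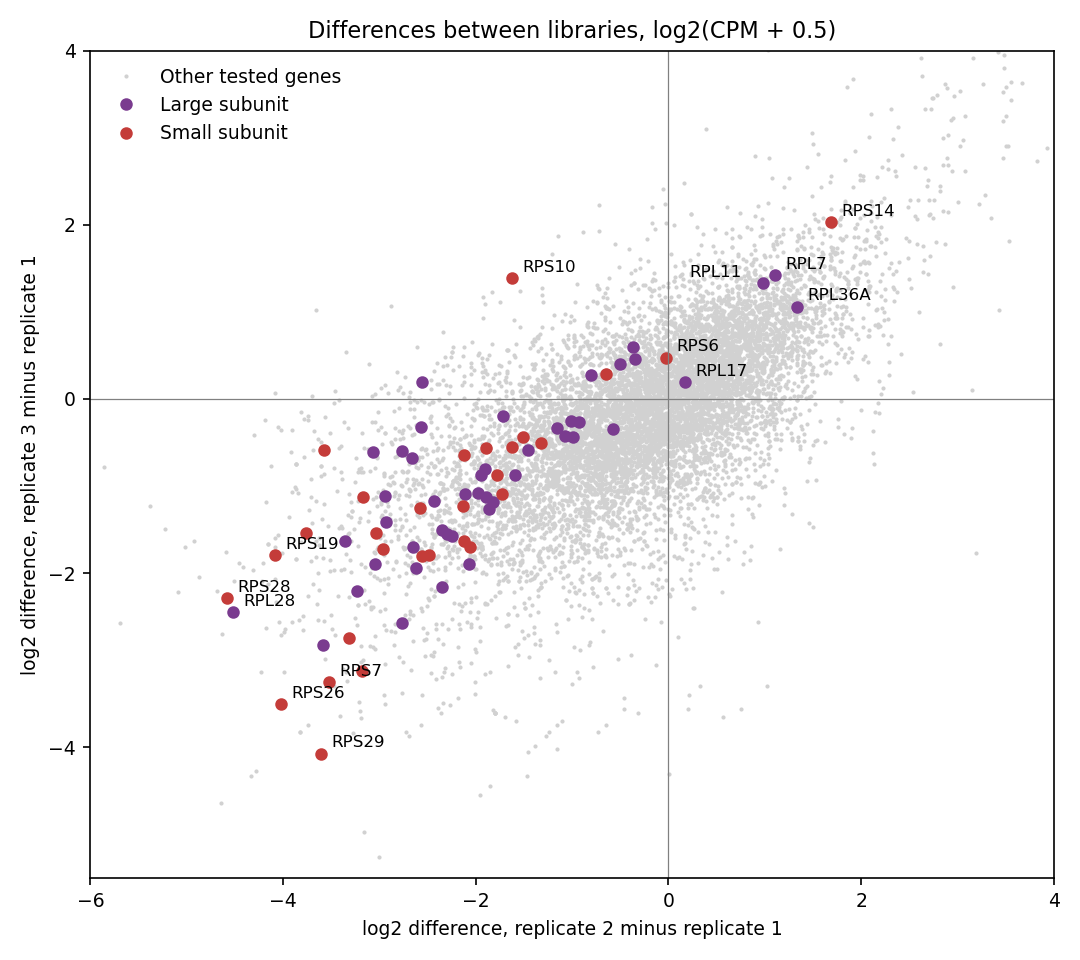
Differences of replicate 2 (horizontal axis) and replicate 3 (vertical axis) from replicate 1, in log2(CPM + 0.5), for canonical large and small subunit genes (large dots) and all other tested genes (grey dots, a few outside the axes), with 4 canonical genes not shown. Both axes share replicate 1, so points are drawn along the diagonal by that library alone. Most members lie at the lower left, with RPS28 and RPL28 farthest left, and RPS14 at the upper right.

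The canonical genes with the largest spread were RPS28, RPL28, RPS29, RPS26, RPS19 and RPS7. RPS28, which lies at the exit of the mRNA channel, had 644 CPM in replicate 1, 26.4 in replicate 2 and 131 in replicate 3, a log2 difference of -4.58 between replicates 2 and 1. RPL28, a large subunit protein found in eukaryotes, had 2937, 128 and 538 CPM (-4.52). RPS19, a small subunit protein and the gene most often mutated in Diamond-Blackfan anaemia, had 2517, 148 and 728 CPM (-4.08). All 3 were ordered like the family, with replicate 3 between the others.

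RPS26, which contacts the mRNA just upstream of its start codon, had 986, 60.3 and 86.7 CPM. RPS7, which like RPL11 can bind MDM2, had 2134, 185 and 224 CPM. In these genes, in RPS29 and in RPS27 (1093, 120.0 and 125 CPM), replicates 2 and 3 lay close together and replicate 1 stood far above both. RPS29 was lowest in replicate 3, at 70.6 CPM against 97.4 in replicate 2, the reverse of nearly all other members.

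Among the members with the smallest spread were RPL17, RPS6, RPL15 and RPL41. RPS6 had 6973, 6839 and 9685 CPM, so that replicates 1 and 2 were nearly level. RPL15 had 1217, 815 and 961 CPM. RPL41, the shortest of the ribosomal proteins, had 440.5, 347 and 607 CPM. In RPS6, RPL15 and RPL41, replicate 2 remained the lowest library.

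Only 5 canonical genes were higher in replicate 2 than in replicate 1: RPS14, RPL7, RPL11, RPL36A and RPL17. RPS14 had 15322, 15651 and 16286 counts in libraries of very unequal depth, which is 3063, 9837 and 12493 CPM and a log2 difference of 1.68 between replicates 2 and 1. RPL7 had 2746.5, 5901 and 7370 CPM (1.10), and RPL11 had 3054, 6021 and 7683 CPM (0.98). In these 3 genes replicate 1 was lowest and replicate 3 highest, an order that among the other members was also that of the paralogue RPL36AL, which passed, and of RPL17, which did not. With the other 2 scalings 72 rather than 73 canonical genes were lower in replicate 2, since RPS6, at -0.03, lies at the border.

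The unequal differences changed the make-up of the family's counts. RPS14, RPL7, RPL11, RPS6 and RPL13A were the 5 canonical genes with the most counts in replicate 2. Their high share in that library thus follows from the choice of genes. Together they gave 14.2% of the counts of the 78 canonical genes in replicate 1, 44.9% in replicate 2 and 36.3% in replicate 3. With the top 5 genes of each library in their place, the shares were 19.3%, 44.9% and 37.1%. RPS14 alone gave 1.73% (95% interval 1.70 to 1.75%), 12.3% (12.2 to 12.5%) and 8.83% (8.70 to 8.96%). RPLP0 and RPL3 were among the 5 genes with the most counts in replicate 1 and not in replicate 2, where RPS14, RPL11 and RPL7 were. Across the 78 genes, log2 levels kept their rank best between replicates 2 and 3 (Spearman rho 0.914), and less between replicates 1 and 2 (0.798) and 1 and 3 (0.824). These correlations are over genes of 1 family that share each library, and are descriptions.

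**Figure D3:**
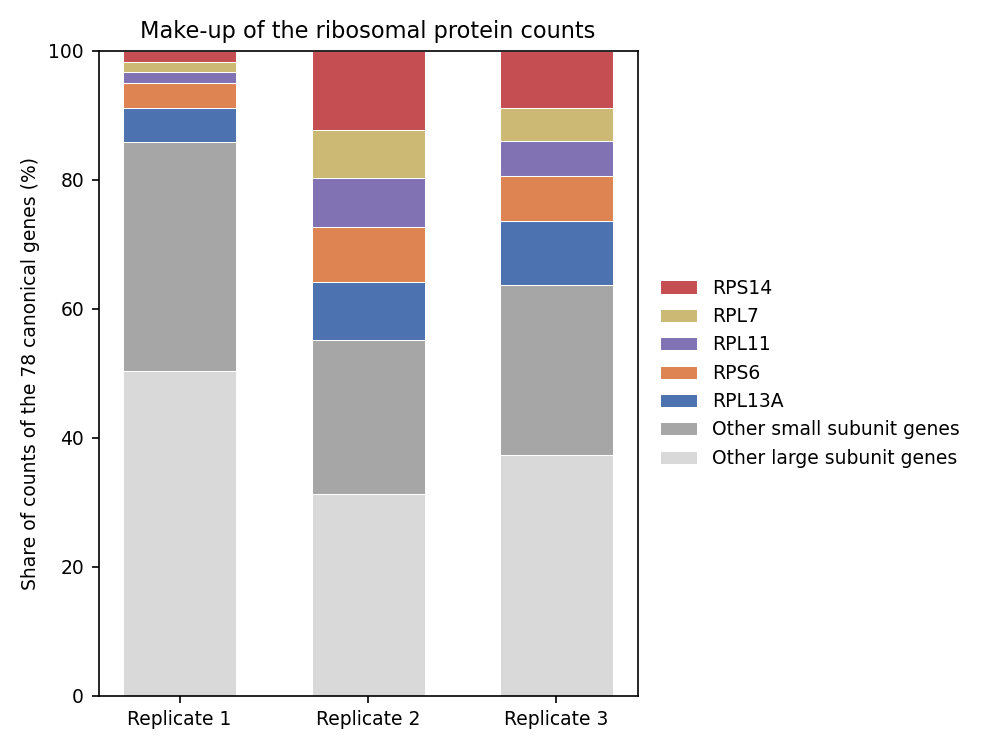
Share of the counts of the 78 canonical genes, in percent, held by each of 5 genes and by the other large and small subunit genes, in each library (stacked bars to 100%). The 5 coloured genes are those with the most counts in replicate 2. They take 14.2% in replicate 1, 44.9% in replicate 2 and 36.3% in replicate 3, and RPS14 differs the most, at 1.73%, 12.3% and 8.83%.

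Large and small subunit genes had similar levels and the same order of libraries. The median large subunit gene had 1996, 400.04 and 819 CPM, and the median small subunit gene 1981, 321 and 711 CPM. In log2 the large subunit median lay above the small by 0.01, 0.31 and 0.20 in replicates 1, 2 and 3, a mean of 0.18 ± 0.15 (SD, n = 3). Per kb of merged exons the difference was -0.50, 0.12 and -0.11, and per kb of the shortest principal transcript -0.03, 0.63 and 0.60, so neither subunit was higher under every measure. Between replicates 2 and 1 the median log2 difference was -1.96 over large and -2.13 over small subunit genes, and between replicates 3 and 1 it was -0.84 and -1.18. Of 46 large and 32 small subunit genes tested, 36 and 26 passed and were highest in replicate 1 (32.1% of all genes). In replicate 2, 42 and 30 passed and were lowest (28.4% of all genes).

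By counts, the small subunit held 41.1% of the canonical total in replicate 1 (95% interval 41.0 to 41.2%), 44.7% in replicate 2 (44.4 to 44.9%) and 42.1% in replicate 3 (41.8 to 42.3%). This order depended on which genes were counted. Without RPS14 the small subunit share was 40.1%, 36.9% and 36.4%, highest in replicate 1 in place of replicate 2. That removal is one-sided, because the large subunit genes RPL11 and RPL7, also lowest in replicate 1, were kept. RPL11 held 1.72%, 7.56% and 5.43% of the canonical counts, and RPL7 1.55%, 7.41% and 5.21%. The share without all of these genes was not computed.

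Members were also grouped by shared roles. RPL5, which with RPL11 carries the 5S ribosomal RNA into the large subunit, had 4043, 2851 and 5339 CPM. RPL5 and RPL11 were both highest in replicate 3 but had different lowest libraries, replicate 2 for RPL5 and replicate 1 for RPL11. The 3 proteins of the P stalk, which recruits elongation factors to the ribosome, were all highest in replicate 1, like most members (32.1% of all genes). RPLP0 had 6208, 749.8 and 1673 CPM, RPLP1 had 2257, 219 and 730.3 CPM, and RPLP2 had 1421, 263 and 632 CPM. Their level in replicate 2 was lower by 3.05, 3.36 and 2.43 on the log2 scale than in replicate 1.

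The 7 listed proteins of the mRNA channel and decoding site (RPS2, RPS3, FAU, RPS23, RPS15, RPS26 and RPS28) all passed. So did 67.2% of all genes tested and 98.5% of the other genes of at least 500 CPM. All 7 were highest in replicate 1 (32.1% of all genes) and lowest in replicate 2 (28.4%). Of the 78 canonical genes, 62 and 72 passed with this highest and this lowest library. The median log2 difference of the 7 between replicates 2 and 1 was -2.58, against -2.09 over the canonical genes. RPS3, which lies at the mRNA entry, had 5139, 862 and 2162 CPM. Of the 7 listed proteins around the peptide exit port, 6 passed (all but RPL17), beside the same 67.2% and 98.5%. RPL35 had 1587, 269 and 1820 CPM and was highest in replicate 3, while RPL26 had 969, 231 and 260.1 CPM and the other 4 were also highest in replicate 1. Both members made as fusions with a ubiquitin-like protein were highest in replicate 1, like most members (32.1% of all genes). RPS27A had 3960 CPM against 1579 and 2782, and FAU 634 against 222 and 467 CPM.

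All 19 listed genes of Diamond-Blackfan anaemia, an inherited failure of red cell production, passed, as did 67.2% of all genes tested and 98.5% of the other genes of at least 500 CPM. Their highest level was in replicate 1 for 15 (32.1% of all genes) and their lowest in replicate 2 for 17 (28.4% of all genes). Their median log2 difference between replicates 2 and 1 was -2.07, close to the canonical median, and their range, from -4.58 for RPS28 to 0.98 for RPL11, spans nearly that of the family.

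The length and base composition of the members were set beside the differences. The canonical genes had GC contents of 37.4 to 63.7% over their longest transcripts, with a median of 47.9%, and a median principal transcript of 704.5 bases, against 47.1% and 2958 bases over all genes tested. In the 3529 other genes within the members' middle GC range (44.4 to 54.7%), the median difference between replicates 2 and 1 was -0.18. In the 536 other genes within the members' middle length range (555 to 999 bases) it was -0.996, with -0.50 between replicates 3 and 1 and 0.52 between 3 and 2. Other short genes thus lay on the same side as the members, by a smaller median. The part of transcript length in the members' differences was not tested.

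Within the family, GC content went with the gap between replicates 2 and 3. The 39 GC-rich canonical genes (48.0 to 63.7%) had a median log2 difference of 1.16 between replicates 3 and 2, against 0.66 for the 39 GC-poor genes (37.4 to 47.9%). Spearman's rho over the 78 genes was 0.655 for this difference, -0.355 for replicate 2 against 1 and -0.001 for replicate 3 against 1. The points share their libraries and the correlations are descriptions. No correlation was computed over other genes. Among chromosomes with canonical genes, the other tested genes had the highest median GC content on 19 and 22 and the lowest on 13 and 4. Their median differences between replicates 2 and 1 were -0.94, -0.81, 0.10 and 0.16 in that order. Between replicates 3 and 1 they were -0.11, -0.29, -0.20 and -0.11. Other genes of the GC-rich chromosomes were thus also lower in replicate 2. RPL35 (63.7% GC) was 2.76 higher in replicate 3 than in 2 and RPS9 (56.2%) 2.99 higher, while RPS29 (42.8%) was lower and RPL26 (44.6%) differed by 0.17. RPS10 was an exception, at 46.9% GC and a difference of 3.02, from 7 and 51 counts. The principal transcript length had rho values of 0.091, 0.003 and -0.017 with the differences 2 against 1, 3 against 1 and 3 against 2.

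**Figure D4:**
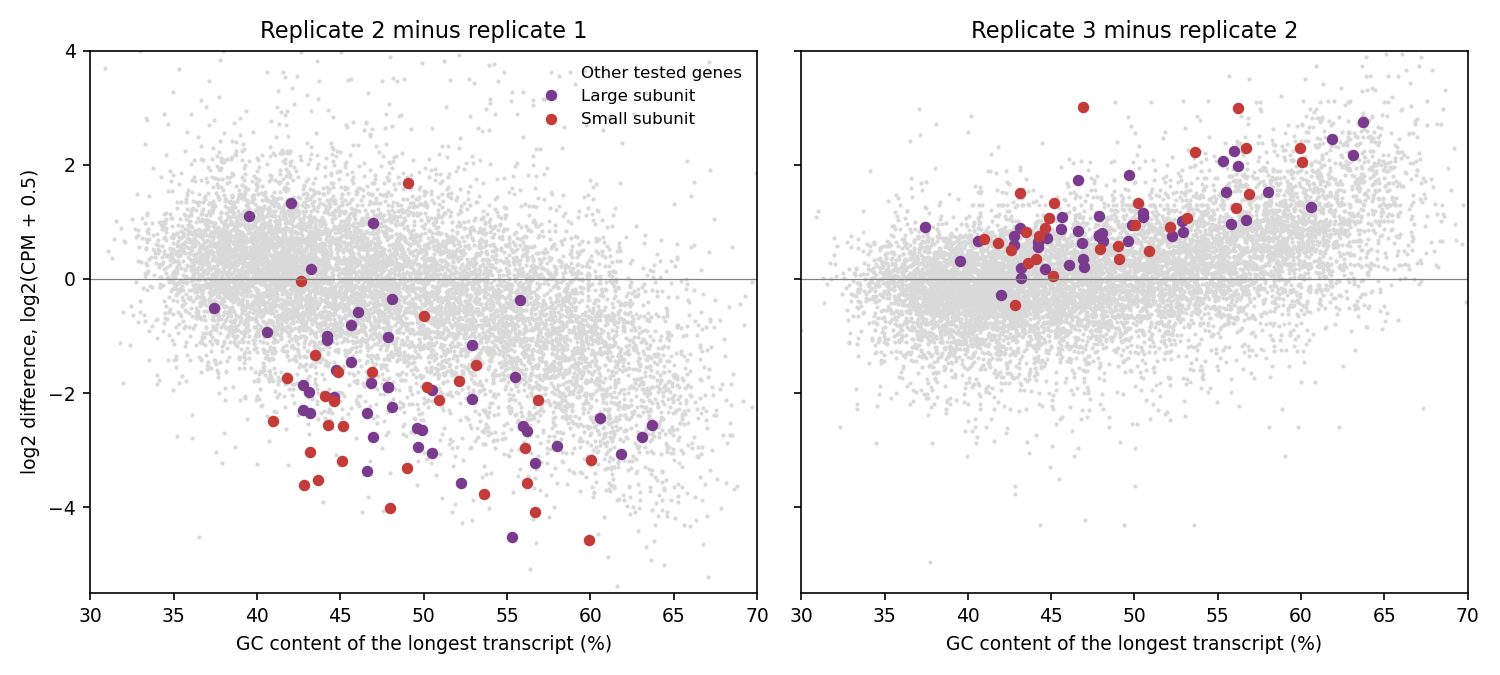
Log2 difference between libraries (vertical axis) against the GC content of the longest transcript in percent (horizontal axis), for canonical large and small subunit genes and all other tested genes (grey), for replicate 2 minus 1 (left) and 3 minus 2 (right), with 4 canonical genes not shown. On the right, members climb from left to right (Spearman rho 0.655 over 78 genes), and on the left nearly all lie below zero at every GC content.

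Medians were close with and without the start motif. The 43 genes with a C and at least 4 further pyrimidines at the annotated start had a median log2 difference between replicates 2 and 1 of -2.13, and the 20 without had -2.20. RPS14, which was higher in replicate 2, and RPS19, which was 4.08 lower, both have the tract in the windows printed above. Among chromosomes, 19 held the most canonical genes, 12 of 78, and all 12 were lower in replicate 2 than in 1, with a median of -3.12. Their median GC content was 56.1%. The 632 other tested genes of chromosome 19 had a median difference of -0.94 and a median GC content of 58.6%. On chromosome 1, the 5 canonical genes had a median of -0.50. Between replicates 3 and 1, the 12 canonical genes of chromosome 19 had a median of -0.59, against -0.98 over all 78.

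The paralogues were described by their log2 ratio to the canonical gene in each library. An exact permutation test that flips the sign of each library's ratio (two-sided) was run on the 7 pairs. With 3 libraries its p cannot be below 0.25, and no pair could pass 0.05. Of the 7, 6 kept 1 direction in all 3 libraries (exact permutation p = 0.25, adjusted over the 7 pairs 0.292). Coding sequences of GENCODE v29 were aligned to show how alike the pairs are, since near-identical stretches can lead reads to the wrong copy. Identity was 54.0% for RPL7 and RPL7L1, 65.4% for RPL22 and RPL22L1, 75.2% for RPL3 and RPL3L, 78.0% for RPS27 and RPS27L, 84.2% for RPL26 and RPL26L1, 90.0% for RPL36A and RPL36AL and 94.9% for RPL39 and RPL39L.

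RPL36AL was the paralogue that exceeded its canonical gene throughout. It had 248, 297 and 499 CPM, while RPL36A, on the X chromosome, had 10.4, 27.0 and 22.2 CPM. The log2 ratio of RPL36A to RPL36AL was -4.51, -3.43 and -4.46, a mean of -4.13 ± 0.61 (SD, n = 3), and it was -6.54 per kb of merged exons and -3.34 per kb of the shortest principal transcript. The coding sequences differ at 32 of 321 bases, and the longest stretch without a difference is 63 bases. No source used here states how the authors assigned reads that fit both copies, so the split between these 2 genes is uncertain.

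RPS27 and RPS27L were the pair whose order changed between libraries. RPS27L, a paralogue known to be induced by p53, had 117, 174 and 170.3 CPM, and RPS27 had 1093, 120.0 and 125 CPM. In replicate 1 RPS27 lay far above its paralogue, and in replicates 2 and 3 slightly below it. The log2 ratio was 3.22, -0.53 and -0.44 (exact permutation p = 1), and its mean of 0.75 ± 2.14 turned to -0.49 without replicate 1. Per kb of merged exons RPS27 was above RPS27L in all 3 libraries, at 6.36, 2.61 and 2.70. These sequences differ at 56 of 255 bases, with no stretch of more than 20 identical bases. Their first 150 bases from the start codon, with 33 of the differences, are printed 5′ to 3′, because the order of these 2 genes turned between libraries. Capitals mark the bases that differ.
RPS27: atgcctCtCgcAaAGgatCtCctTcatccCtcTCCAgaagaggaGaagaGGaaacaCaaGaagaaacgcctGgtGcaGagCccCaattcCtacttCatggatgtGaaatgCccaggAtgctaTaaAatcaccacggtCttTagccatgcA
RPS27L: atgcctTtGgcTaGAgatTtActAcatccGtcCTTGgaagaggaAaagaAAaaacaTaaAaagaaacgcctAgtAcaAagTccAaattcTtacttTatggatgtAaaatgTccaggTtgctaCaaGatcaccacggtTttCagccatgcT

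RPL22 and RPL22L1 differed by a mean log2 ratio of 0.87 ± 0.72 (SD, n = 3). RPL22 had 402, 199 and 337 CPM and RPL22L1 376, 69.1 and 168 CPM, so the genes were level in replicate 1 and apart in the others, with log2 ratios of 0.10, 1.52 and 1.00. Per kb of merged exons the ratio was -0.91, 0.51 and -0.01, which leaves no direction. Both were highest in replicate 1 and lowest in replicate 2.

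The other 4 paralogues were below their canonical genes in all 3 libraries, by the smallest mean ratio for RPL39L. RPL7L1, a relative of RPL7 linked to ribosome assembly, had 149, 61.0 and 83.6 CPM, and the log2 ratio of RPL7 to it was 4.20, 6.59 and 6.45. RPL7 was lowest in replicate 1, where RPL7L1 was highest. RPL26L1 had 61, 3 and 8 counts, and the log2 ratio of RPL26 to it was 6.25 in replicate 1 and 5.29 in replicate 3. In replicate 2 the ratio rests on 367 against 3 counts, 122-fold with a 95% counting interval of 41.5 to 596.

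RPL39L, known mainly from male germ cells, had 44, 5 and 0 counts. The log2 ratio of RPL39 to it was 3.19 and 1.77 in replicates 1 and 2, or 2.18 and 0.76 per kb of merged exons. In replicate 2 this ratio rests on 19 against 5 counts. In replicate 3 RPL39, with 18 counts, was at least 6-fold higher (3 counts allowed for a count of 0). RPL3L, the form of heart and skeletal muscle, had 2, 0 and 0 counts. RPL3, which had 5793, 1762 and 5076 CPM, was above it 14488-fold in replicate 1 (95% counting interval 4010 to 119634) and at least 935-fold and 2206-fold higher in replicates 2 and 3.

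**Figure D5:**
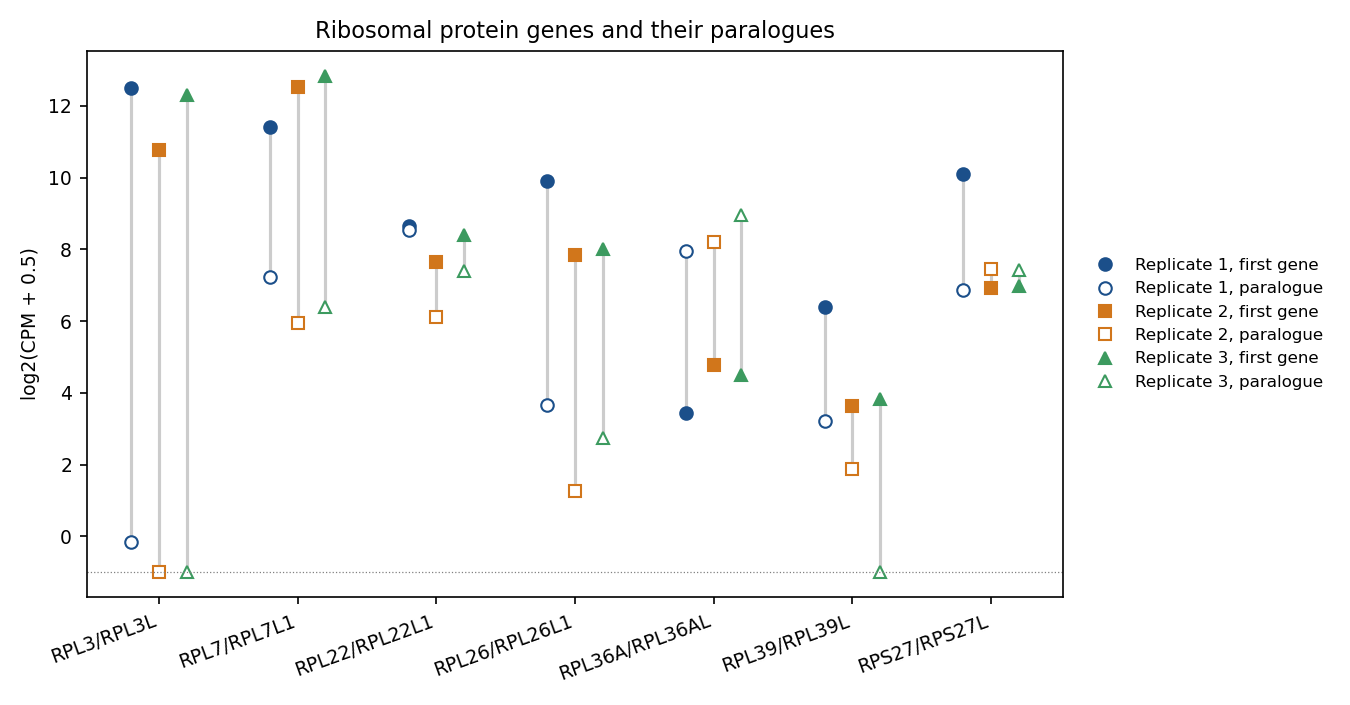
Level of the canonical gene (filled) and its paralogue (open) in each library, as log2(CPM + 0.5), for 7 pairs. The dotted line marks a count of 0. Filled symbols lie above open ones except for RPL36A in all 3 libraries and RPS27 in replicates 2 and 3.

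Ribosomal protein mRNAs have left many processed pseudogenes in the genome, and reads can be placed on these copies. The annotation holds 1146 pseudogenes named after members, led by RPL23A with 91 and RPSA with 74. The table holds 70 of them, from 40 parents, with 3921, 604 and 834 counts in the 3 libraries. This is 0.44, 0.473 and 0.449 counts for each 100 counts on members. Without RPS2P5, the pseudogene with the most counts, it is 0.307, 0.427 and 0.391. The most counts were on RPS2P5, with 1184, 58 and 108, which is 11.7, 7.89 and 6.41 for each 100 counts on RPS2, and on RPL9P9, with 697, 93 and 123.

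Exons of 31 members overlap an annotated exon on the opposite strand, and no source used here gives the strand setting of the counting, so such reads cannot be told apart. Among partners of members with the widest spread, NDUFA7, opposite RPS28, had 3, 1 and 2 counts. KANK3, opposite 17.2% of the RPS28 exons, was not analysed here. LRR1, opposite RPS29, had 178, 20 and 32 counts (35.6, 12.6 and 24.5 CPM), where RPS29 had 5981, 155 and 92. Partners of other members also held counts, with differing orders of the libraries. ATG10, opposite RPS23, had 15, 130 and 415 counts, and MRPL49, opposite FAU, had 221, 40 and 61. With the strand setting unknown, a partner's own counts do not bound the reads that such overlaps move. Of the partners, 6 are annotated as antisense genes and are in the table. Those opposite RPL17 (AC100778.3, with 0, 29 and 109 counts), RPL30 (AP003352.1, with 0, 8 and 41) and RPL23A (AC010761.1, with 2, 29 and 55) had more counts in the shallower replicates 2 and 3 than in replicate 1. Their part in the differences between libraries was not tested.

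Genes that share the biology of the family but fall outside its rule were read from listed groups. RACK1, the scaffold protein on the small subunit, had 2487, 406 and 987 CPM and was ordered like the family. Of 17 listed TOP mRNAs outside the member rule, RACK1 included, 16 were in the table and all 16 passed (67.2% of all genes tested, 98.5% of the other genes of at least 500 CPM). Of these, 11 were highest in replicate 1 (32.1% of all genes and 40.8% of the other genes of at least 500 CPM). The median log2 difference of the 16 between replicates 2 and 1 was -0.90. EEF1A1, the elongation factor that brings aminoacyl-tRNA, had 15029, 3329 and 5489 CPM, and EEF2, the translocation factor, had 3504, 576 and 1464 CPM. TPT1, with 6643, 16597 and 14677 CPM, and NAP1L1, with 2763, 6744 and 6175, were instead lowest in replicate 1, as were EIF4B and NPM1.

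The dedicated chaperones of ribosomal proteins and the regulators of TOP mRNAs showed no common order. Of 16 tested, 12 passed, near the 67.2% of all genes. The highest library was replicate 1 for 4, replicate 2 for 3 and replicate 3 for 5 (32.1, 18.0 and 17.0% of all genes). Over the list, the median log2 difference between replicates 2 and 1 was -0.19. LARP1, which binds the TOP tract, had 285, 655 and 599 CPM, and LTV1, an assembly factor of the small subunit, 23.2, 71.0 and 75.9 CPM, both lowest in replicate 1. GRWD1, a chaperone of RPL3, had 77.6, 40.2 and 72.1 CPM. MTOR did not pass, with 69.6, 61.0 and 76.7 CPM (chi-square test, adjusted p = 0.319).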

How the data were processed

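RNA sequencing data of 3 OCI-Ly10 libraries were analysed. Per the labels, 1 µg of Trizol RNA went into an Illumina TruSeq kit. The authors deposited raw counts per gene and log2 CPM. Tools and build named in the submitters' processing notes are STAR, edgeR and hg38. The counter, strand setting, annotation release and versions: not given in the sources used here.

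Gene IDs without version were matched to GENCODE release 29 (15668 matched, 140 did not). TMM factors from edgeR 4.0.16 (R 4.3.3) were 0.914, 1.10 and 0.991. Logs are log2(CPM + 0.5), which understates differences of low genes. A count of 0 leaves room for 0.60, 1.89 and 2.30 CPM, the value of 3 counts. Intervals and floors reflect counting alone, and without molecular identifiers reads may be copies of 1 molecule. The chi-square test needed a mean count of 10 or more and was tested on simulated data. Those data held counting error alone, as the test assumes, so they do not show how it behaves with wider spread. Alternatives changed the scaling, filter, pseudocount, length measure and libraries, or used the deposited log2 values.

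The members and lists were chosen with earlier results of these data known. Values in every library are given for the 6 highest and 6 lowest canonical members per kb, the 6 with the largest and smallest SD, the pairs and the role lists. Paralogues were aligned by coding sequence (Biopython 1.88), not by protein as planned. Values of some single members are not reported here, but they stay in all counts, medians and tests.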

Additional observations from a re-analysis of the deposited data

How the results depend on the processing

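Among the main results, 105 alternatives were labelled the same, 3 moved, 1 of them with a change of sign, and 2 reversed. For the paralogue ratios this label compares only the sign of the mean, and sizes could shift. Per kb of merged exons, RPS27 to RPS27L went from 0.75 to 3.89, and RPL36A to RPL36AL from -4.13 to -6.54. The moved values were the large minus small subunit difference (0.18, no test), which changed sign to -0.16 per kb of merged exons and became 0.40 per kb of the shortest principal transcript, a measure chosen after seeing the data, and the pseudogene counts for each 100 member counts (0.454), which became 0.375 without RPS2P5. The reversed values were the ratio of RPL22 to RPL22L1, -0.14 per kb of merged exons, and that of RPS27 to RPS27L, from -0.49 without replicate 1 to 1.39 without replicate 2. The number of members that differed between libraries was 83 of 84 with DESeq2 1.42.0 size factors and with column totals, 79 of 79 at a mean count of at least 50, 80 of 82 after thinning to the smallest library, and 72 to 82 when 1 replicate was left out. Among single members, RPL36A was lost after thinning, RPL26L1 without replicate 2 and RPS6 without replicate 3. No paired analysis was possible because all samples form 1 group. Depth limits the paralogues RPL3L, RPL26L1 and RPL39L and the genes RPL17, RPL36A, RPL39 and RPS10, which rest on under 100 counts in most libraries.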
